A study of Mus musculus with 2 samples.

Results

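Within the deposited cell cycle class S/G2, cells named mid deuterosomal were compared with cells named cycling progenitors in primary cultures of mouse ventricular wall. Both the class and the population name were taken from the submitters' metadata for each cell. The comparison covered 985 mid deuterosomal cells (693 in replicate 1, 292 in replicate 2) and 303 cycling progenitors (206 and 97). These are 1288 of the 16401 cells of the series, and 1288 of the 1982 cells of class S/G2. Class S/G2 held 78.8% and 82.7% of all mid deuterosomal cells in the 2 libraries, and 39.6% and 40.6% of all cycling progenitors.

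The series profiled differentiating ependymal cells by droplet single-cell RNA sequencing, and its title concerns an endocycle, a cell cycle variant without division, in multiciliated cells. Both groups come from the same 2 untreated cultures, each started from dissected walls of the lateral ventricles of P0-P2 newborns. Replicate 1 was C57BL/6N and replicate 2 was C57BL/6J. Walls were enzymatically dispersed, grown to confluence in serum and shaken overnight to take off neurons, oligodendrocytes and other cells, and cells were collected with trypsin after 2 days without serum. The substrain and the library cannot be told apart, and the labels do not say whether litter, day or sequencing run differed. The sources used here do not say how the submitters assigned names and classes. If they rest on transcripts, tests between the populations are not independent of the naming.

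A dividing cell passes through a fixed order of events. E-type cyclins with CDK2 start DNA replication from origins that MCM helicases have licensed, A-type cyclins carry the cell through S and G2, and B-type cyclins with CDK1 drive mitosis. The anaphase-promoting complex (APC/C), a ubiquitin ligase, then destroys mitotic regulators, and its inhibitors Emi1 (gene Fbxo5) and Emi2 (Fbxo43) hold it back. Ependymal cells line the brain ventricles and beat many motile cilia. Each cilium stands on a centriole, and most of these centrioles form in differentiating, non-dividing cells on deuterosomes, which is the stage the name deuterosomal refers to. Centriole duplication in dividing cells and the mass formation of centrioles draw on partly shared enzymes, such as the kinase encoded by Plk4.

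Levels below are in CPM: unique molecular identifiers (UMIs) of a gene summed over the cells of 1 library, population and class, scaled to 1e6 UMIs of that sum. The 4 sums held 14265178 and 6620551 UMIs for mid deuterosomal cells and 4137036 and 2197535 for cycling progenitors. Median UMIs per cell were similar, 18442 and 21612 against 20019 and 23092, and median mitochondrial shares were 3.15% and 5.31% against 3.45% and 5.37%. Pairs of levels, UMIs, cell numbers or shares given for 1 population are replicate 1 and then replicate 2. Log2 fold changes are mid deuterosomal over cycling progenitors (n = 2 libraries). The ± is the standard error of a fit over 19 pairs of population and class in both libraries, with the library as block. It does not measure the spread between cultures. Adjusted p-values come from edgeR's quasi-likelihood test in that fit, with Benjamini-Hochberg adjustment over 13634 genes, called at 0.05. CPM was not divided by gene length because the assay counts 3′ ends, and levels of different genes are not compared.

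Of the genes tested, 4317 (31.7%) were higher and 4657 (34.2%) lower in mid deuterosomal cells, 8974 in all (65.8%). A change of at least 2-fold was met by 2400 higher (17.6%) and 2591 lower genes (19.0%), and the median over all genes was −0.05. Most genes passed the test, and each count of list members below is to be read against these shares. Each S/G2 population was also set against resting cells, the mean of progenitors I and II of class G0. Mid deuterosomal cells had 5182 genes higher (38.0%) and 5507 lower (40.4%) than resting progenitors, 78.4% in all, with a median of −0.04. Cycling progenitors had 2794 higher (20.5%) and 3507 lower (25.7%), 46.2% in all, with a median of −0.09. These 2 comparisons share the resting sums with each other and the S/G2 sums with the main comparison, so their values are only set side by side. Among the 177 genes named by rule, the libraries of the 2 populations overlapped for Banf1, C1qa, C1qc, Fosb, Tuba1b and Tyrobp. The rule took genes past the test, so the lack of overlap in the others is a description. The share without overlap among all genes tested is not given here.

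Genes taken here as markers went with the population names. They were chosen with earlier results of these data known, and the naming may rest on transcripts, so this is a description. All 8 markers of mid deuterosomal cells were higher: Deup1, which encodes a deuterosome scaffold protein, Ccno, Mcidas, Myb, Foxn4, Cdc20b, Plk4 and Cdkn1a. Their summed level was 2728 and 2735 CPM against 340.1 and 299 CPM. The call of Cdkn1a is lost without the library as a block (adjusted p = 0.075). All 6 markers of cycling cells were lower, at 809 and 961 CPM against 3676 and 4682 CPM. Deup1 stood at 1053 and 1083 CPM in mid deuterosomal cells and at 31.4 and 16.8 CPM in cycling progenitors (5.38 ± 0.19, adjusted p = 5.84e-17). Mki67, which coats mitotic chromosomes and marks dividing cells, stood at 27.1 and 46.2 against 928 and 1295 CPM (−4.97 ± 0.27, adjusted p = 6.27e-12). For both genes the 2 populations lie far apart in each library. Markers of other cells ranged from absent to detected. The fibroblast gene Lum and the oligodendrocyte gene Mog had 0 UMIs in all 4 sums, and the microglial gene P2ry12 had at most 3 UMIs in any. Olig2, a factor of the oligodendrocyte lineage, had 1.68 and 0.302 CPM in mid deuterosomal cells and 28.5 and 33.2 CPM in cycling progenitors. The myelin gene Mbp had 141 and 9 UMIs against 5 and 1, and the microglial gene C1qa 131 and 7 UMIs against 5 and 3, both mainly in mid deuterosomal replicate 1. The part of such cells in the results was not tested.

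The cyclins split by type. Of 13 cyclins tested, 2 were higher in mid deuterosomal cells and 11 lower (median −2.22). The A-type pair went opposite ways. Ccna2 (ENSMUSG00000027715, chr3:36564865-36572150 in mm10), the A-type cyclin of somatic division, had 9.25 and 10.6 CPM in mid deuterosomal cells and 309 and 369 CPM in cycling progenitors, 34.3-fold lower (−5.10 ± 0.13, adjusted p = 2.53e-41). Ccna1 (ENSMUSG00000027793, chr3:55045469-55055501), the A-type cyclin best known from male meiosis, had 462 and 341 CPM against 108 and 84.2 CPM, 4.12-fold higher (2.04 ± 0.18, adjusted p = 2.99e-09). The groups do not overlap for either gene. Resting progenitors held 0.470 to 1.23 CPM of Ccna2 and 13.0 to 21.1 CPM of Ccna1, so both genes were above the resting level in both S/G2 populations.

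The B-type cyclins, partners of CDK1 at mitosis, were lower in mid deuterosomal cells but far above rest in both populations. Ccnb1 had 215 and 233 CPM against 385 and 443 CPM (−0.89 ± 0.09, adjusted p = 8e-13), and resting cells had 2.03 to 2.65 CPM. For Ccnb2 the values were 99.4 and 106 CPM and 343 and 360.4 CPM (−1.78 ± 0.11, adjusted p = 1.29e-22). For each gene both mid deuterosomal libraries lay below both others. Against resting progenitors, Ccnb1 was 6.55 higher on the log2 scale in mid deuterosomal cells and 7.43 higher in cycling progenitors. Ccnb2 was 6.63 and 8.42 higher in these 2 populations. Over all classes together, 1233 mid deuterosomal cells and 759 cycling progenitors, the Ccnb1 difference shrank to −0.08 (adjusted p = 0.454). The mix of classes differs between the populations, so this value and the all-class values below are not matched comparisons. Class G0 held 12.1% and 15.5% of cycling progenitors and 3.41% and 1.70% of mid deuterosomal cells. For class G1 these shares were 21.2% and 20.5%, and 0.114% and 0.567%. The part of this mix in the all-class values was not tested.

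Cyclins of G1 and of S phase entry fell nearer to rest or below it. Ccnd1, which links growth signals to cell cycle entry, had 3.58 and 1.36 CPM against 113 and 120.1 CPM (−5.37 ± 0.43, adjusted p = 8.42e-10) and lay below progenitors I at rest, which had 66.0 and 58.2 CPM. The E-type Ccne2 had 0.631 and 0 CPM against 20.1 and 34.6 CPM, 9 UMIs against 159, a ratio of 58.2, 95% interval 29.9 to 129.7. Ccne1 was at 2.59 and 2.72 CPM against 11.4 and 18.2 CPM (−2.38 ± 0.28, adjusted p = 2.55e-11), and its level in mid deuterosomal cells did not pass the test against resting cells (log2 fold change 0.34, adjusted p = 0.228). These 3 genes were low in both mid deuterosomal libraries, and the groups do not overlap. The cyclins Ccnf (−3.16), Ccnd2 (−2.48), Ccnd3 (−1.28), Ccng1 (−1.95) and Ccng2 (−2.22) were lower too. Ccno, an atypical cyclin needed for centriole amplification, was the other cyclin that was higher, with 317 and 359 CPM against 9.19 and 8.19 CPM (5.21 ± 0.33, adjusted p = 5.6e-11).

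**Figure D1:**
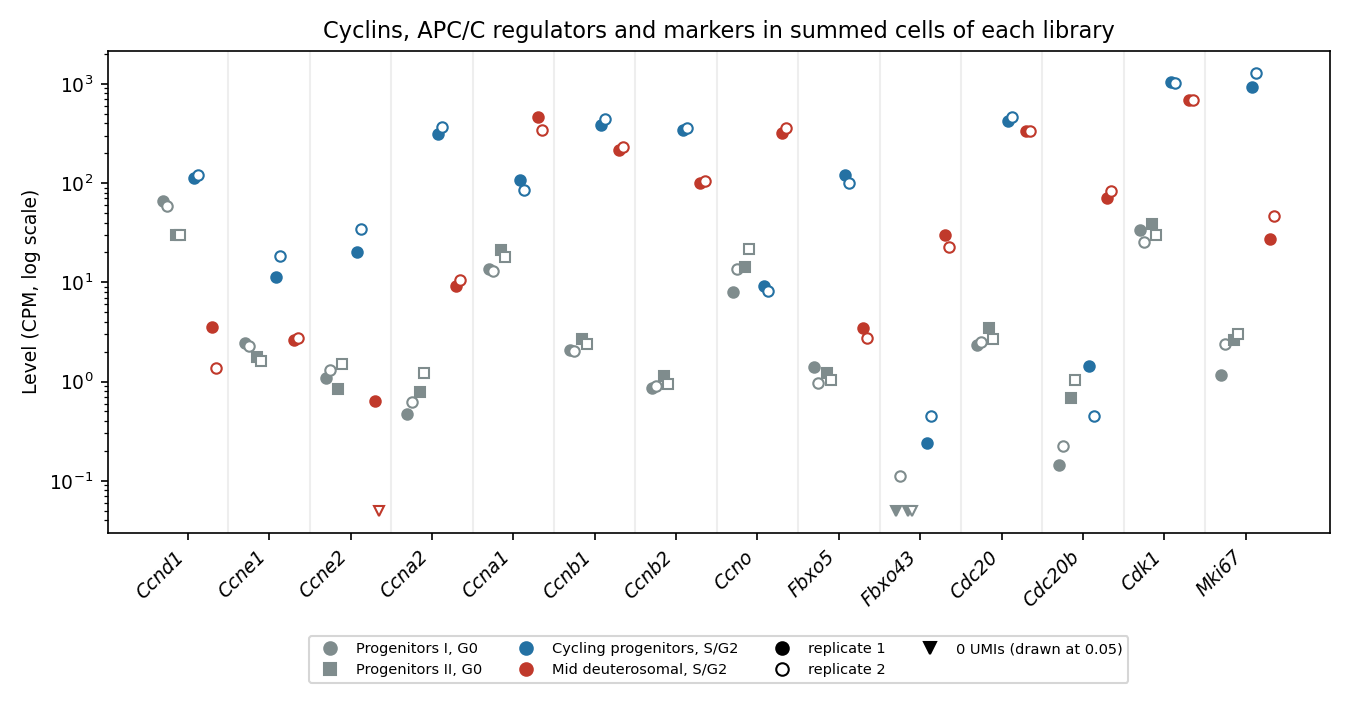
Levels (CPM, log axis) of cyclins, APC/C regulators, Cdk1 and Mki67 in each library: resting progenitors I and II (grey), S/G2 cycling progenitors (blue) and S/G2 mid deuterosomal cells (red), filled for replicate 1 and open for replicate 2, with a triangle at the bottom for 0 UMIs. Ccna2 and Fbxo5 are high in cycling progenitors and low in mid deuterosomal cells. Ccna1 and Fbxo43 are higher in mid deuterosomal cells, though Ccna1 is above rest in cycling progenitors too. Ccnb1, Cdc20 and Cdk1 are far above rest in both S/G2 populations.

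CDK1 is the kinase that B-type cyclins activate. Cdk1 had 692 and 684 CPM in mid deuterosomal cells and 1039.6 and 1014 CPM in cycling progenitors (−0.58 ± 0.09, adjusted p = 5.19e-08), and 25.7 to 39.1 CPM at rest. The mid deuterosomal values are lower in both libraries and do not overlap the others, and the change is 1.499-fold. Over all classes it was −0.08 (adjusted p = 0.479). Cdk2, the partner of cyclins E and A in S phase, had 7.01 and 4.83 CPM against 20.8 and 38.7 CPM (−2.12 ± 0.25, adjusted p = 3.74e-10), and its level in mid deuterosomal cells did not pass the test against rest (adjusted p = 0.453). Of the 14 CDKs, activators and inhibitory kinases, 12 were lower and 2 higher (median −1.09). The phosphatase gene Cdc25b, an activator of CDK1, had 2.17 and 1.66 CPM against 33.4 and 33.2 CPM (−4.05 ± 0.29, adjusted p = 1.23e-19), and Cdc25a was lower (−2.81). Pkmyt1, which encodes a kinase that holds CDK1 inactive, had 0.701 and 0.453 CPM against 19.8 and 18.2 CPM (−4.92 ± 0.38, adjusted p = 1.82e-18). The 2 higher members were Cdk7 (1.42 ± 0.12, adjusted p = 2.22e-16) and Mnat1 (0.45 ± 0.11, adjusted p = 0.000283), both subunits of the CDK-activating kinase.

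CDK inhibitors were mostly lower, 5 of 7 (median −2.12). Cdkn2c, an inhibitor of CDK4 and CDK6, had 47.2 and 43.0 CPM against 449.8 and 343 CPM (−3.14 ± 0.10, adjusted p = 1.43e-36). Cdkn1c (−3.57) and Cdkn2a (−3.82) were lower as well. Cdkn1a, which encodes p21, was the 1 member higher, with 335 and 209 CPM against 181 and 146 CPM (0.72 ± 0.21, adjusted p = 0.00538). It was higher in both libraries, but the call is lost without the library as a block (adjusted p = 0.075), and progenitors II at rest held 259.9 and 211 CPM, about the mid deuterosomal range.

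Among APC/C regulators, a second pair of paralogs went opposite ways. Fbxo5 (ENSMUSG00000019773, chr10:5799160-5805600), the Emi1 gene, had 3.43 and 2.72 CPM in mid deuterosomal cells and 120.1 and 99.7 CPM in cycling progenitors, 34.9-fold lower (−5.12 ± 0.22, adjusted p = 1.13e-23). Fbxo43 (ENSMUSG00000048230, chr15:36150060-36164884), the Emi2 gene known from oocytes arrested in meiosis, had 30.0 and 22.5 CPM against 0.242 and 0.455 CPM (6.33 ± 0.47, adjusted p = 1.94e-18). The latter rests on 577 UMIs against 2, a ratio of 87.5, 95% interval 24.1 to 724. Neither pair of libraries overlaps. Cdc20, an activator of the APC/C at mitosis, was 1.32-fold lower, at 336 and 331 CPM against 421 and 459 CPM (−0.41 ± 0.09, adjusted p = 9.24e-05), with 2.35 to 3.49 CPM at rest. Over all classes together, where the mix of classes differs between the populations, its direction turned, to 0.46. Its relative Cdc20b, a gene of the multiciliated lineage, had 71.1 and 82.5 CPM against 1.45 and 0.455 CPM, 1560 UMIs against 7 (ratio 67.6, 95% interval 32.7 to 168).

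Over the whole APC/C list of 22 genes, 7 were higher and 12 lower (median −0.28), and without the library block 7 were lower. Most members were above rest in both populations, 16 in mid deuterosomal cells (median 0.94) beside 13 in cycling progenitors (median 0.87). Ube2c, the ubiquitin-conjugating enzyme of the APC/C, had 185 and 141 CPM against 1389.6 and 1165 CPM (−2.98 ± 0.12, adjusted p = 3.26e-21). The subunit gene Anapc15 was lower (−1.14) and Anapc13 higher (0.72).

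E2F and Myb factors were mostly lower. E2F factors switch on S phase genes, and the Myb-MuvB complex with FOXM1 switches on G2 and M genes. E2f3 had 0.841 and 0.906 CPM against 12.3 and 17.7 CPM (−4.02 ± 0.35, adjusted p = 3.78e-16) and was also below rest (−3.55). E2f1 had 5.96 and 4.08 CPM against 16.4 and 14.6 CPM (−1.57 ± 0.24, adjusted p = 2.73e-08), and its difference from rest did not pass the test (adjusted p = 0.272). Foxm1 had 8.27 and 10.3 CPM against 52.7 and 66.0 CPM (−2.70 ± 0.18, adjusted p = 7.87e-21), which was 2.91 above rest. Mybl2, the Myb gene of dividing cells, was lower (−1.25 ± 0.33, adjusted p = 0.000747), a call lost in thinned cells (adjusted p = 0.267). Myb, which takes part in multiciliated differentiation, had 453 and 478 CPM against 19.6 and 13.7 CPM, 26.6-fold higher (4.74 ± 0.25, adjusted p = 2.54e-12). E2f7, a repressor of the E2F family, was also higher (56.2 and 65.4 CPM against 22.5 and 24.1 CPM, 1.36 ± 0.16, adjusted p = 4.78e-11), and so was E2f4 (0.69), a factor of the multicilin complex. In all, 3 of 22 factors of this list were higher and 16 lower (median −0.87).

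Most DNA replication genes were lower in mid deuterosomal cells than in cycling progenitors of the same class. Licensing loads the MCM helicase onto origins, and 12 of 16 licensing genes were lower and 1 higher (median −2.42, beside −0.05 over all genes). The helicase subunit gene Mcm5 had 0.701 and 0.302 CPM against 48.3 and 65.5 CPM (−6.55 ± 0.27, adjusted p = 2.91e-31), which is 12 UMIs against 344. Resting progenitors held 3.13 to 3.95 CPM, more than mid deuterosomal cells in every library (−2.67 ± 0.35, adjusted p = 6.15e-10 against rest). Mcm2 followed, with 1.54 and 1.66 CPM against 32.1 and 48.2 CPM (−4.57 ± 0.24, adjusted p = 3.14e-26) and −2.31 against rest. Cdc6, which brings the helicase to origins, had 0.351 and 0.302 CPM against 4.83 and 9.10 CPM (7 UMIs against 40, ratio 18.8, 95% interval 8.35 to 49.8). The origin recognition gene Orc3 was the 1 member higher (43.0 and 47.4 CPM against 35.0 and 25.0 CPM, 0.52 ± 0.14, adjusted p = 0.00112), a call lost in thinned cells (adjusted p = 0.111). Against rest, 6 licensing genes were higher and 6 lower in mid deuterosomal cells (median 0.04), beside 13 higher and 0 lower in cycling progenitors (median 1.87).

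The promoter of Mcm5 is shown because Mcm5 differed strongly and its promoter holds a match to the motif of E2F factors. The motif was searched as TTTGGCGC or TTTCCCGC on both strands of the 250 bases before each gene's start, in RefSeq's promoter table (GRCm38.p6). The sequence is chr8:75109259-75109508, plus strand, 5′ to 3′ along the gene, with the motif (here on the other strand) in capitals.
Mcm5: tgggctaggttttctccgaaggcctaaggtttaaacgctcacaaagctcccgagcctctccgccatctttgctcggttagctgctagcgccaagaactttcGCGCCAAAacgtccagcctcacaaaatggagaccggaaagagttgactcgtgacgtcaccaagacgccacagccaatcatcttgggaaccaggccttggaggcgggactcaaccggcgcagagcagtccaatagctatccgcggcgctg
The motif was in 6 of 18 promoters (33.3%) of licensing genes, in 0 of 16 of nucleotide supply genes, 0 of 10 of cyclins and 28.6% of ribosome biogenesis and Myc genes. It was in 2.33% of promoters of all genes tested, in 3.28% of those of genes at least 2-fold lower and in 1.59% of those at least 2-fold higher. A promoter counts once however many matches it holds, and a match describes letters, not a measured site.

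Nucleotide supply provides the building blocks of DNA. All 16 nucleotide supply genes were lower (median −1.69). Tk1, thymidine kinase, had 0.911 and 0.302 CPM against 117 and 139 CPM (−7.43 ± 0.25, adjusted p = 8e-31), beside 0.289 to 0.846 CPM at rest, a difference that did not pass the test (adjusted p = 0.338). Rrm2, the regulated subunit of ribonucleotide reductase, had 22.6 and 24.8 CPM against 321 and 435 CPM (−3.97 ± 0.12, adjusted p = 3.17e-37) and was above rest (1.41). For each of these genes the 2 populations were far apart in both libraries. Dut, which clears dUTP, had 20.96 and 18.6 CPM against 389 and 400.4 CPM (−4.33 ± 0.14, adjusted p = 3.21e-26) and was below rest (−1.12).

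At the replication fork, 26 of 30 genes were lower and 1 higher (median −1.52). Pcna, the sliding clamp of DNA polymerases, had 23.6 and 19.8 CPM against 403 and 451 CPM (−4.29 ± 0.14, adjusted p = 2.73e-26). Resting progenitors had 69.6 to 79.8 CPM of Pcna, above mid deuterosomal cells in each library. The primase gene Prim1 (0.771 and 0.755 CPM against 70.3 and 80.1 CPM, −6.59 ± 0.24, adjusted p = 1.62e-34) and Rpa2, a subunit of the single-strand binding protein (2.10 and 1.96 CPM against 130.0 and 137 CPM, −6.05 ± 0.18, adjusted p = 2.37e-39), were below rest too (−3.53 and −3.55). Rnaseh2c, which removes RNA from DNA, was the 1 higher member (0.61). All 30 fork genes were above rest in cycling progenitors (median 1.97), and 15 were above and 10 below rest in mid deuterosomal cells (median 0.31).

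Origin firing genes were 9 of 12 lower and none higher (median −1.50). Named by rule as the lowest were Mcm10 (1.75 and 1.51 CPM against 21.3 and 31.4 CPM, −3.92 ± 0.32, adjusted p = 6.85e-17), Gins3 (−4.14) and Donson (−3.66). Gins3 encodes a part of the active helicase, and Donson helps assemble it. Of this list, 10 genes were above rest in mid deuterosomal cells (median 2.08), beside all 12 in cycling progenitors (median 3.24). The difference between the licensing and firing lists was not tested.

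New DNA needs histones. Of 67 clustered histone genes 41 passed the low count filter, and 35 of these were lower and none higher (median −2.89). In thinned cells 17 were tested and 13 were lower. Their summed level, over all listed genes, was 470.0 and 562 CPM against 2504 and 2680.3 CPM. Hist1h2ae had 2.03 and 1.21 CPM against 148 and 46.9 CPM (−5.90 ± 0.28, adjusted p = 1.26e-18). Hist1h2ab had 3 UMIs against 97 (ratio 107, 95% interval 35.4 to 526), and Hist1h2af had 0 UMIs against 23, at least 25.3-fold lower by the floor of 3 counts over the group. These copies are nearly identical and mostly lack the poly(A) tail that the assay primes on, so single histone genes are uncertain. Of 10 genes for chromatin assembly and maintenance of DNA methylation, 9 were lower (median −1.90). Dnmt1, which copies DNA methylation onto the new strand, had 9.39 and 12.7 CPM against 100.1 and 134 CPM (−3.43 ± 0.16, adjusted p = 3.03e-23), and the chromatin remodeller Hells was lower (−2.68), as was Tonsl (6 UMIs against 31, ratio 17.0, 95% interval 7.002 to 49.9).

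Repair and checkpoint genes were mixed. Of 32 genes of homologous recombination and the Fanconi pathway, 15 were lower, 4 higher and 13 did not pass the test (median −0.40). In thinned cells 27 were tested and 8 were lower. Brip1 (1.54 and 0.604 CPM against 21.03 and 36.9 CPM, −4.45 ± 0.33, adjusted p = 2.23e-19) and Bard1 (−3.80), both partners of BRCA1, were among the lowest. Fancb, a subunit of the Fanconi core complex, was higher (48.6 and 49.7 CPM against 10.4 and 19.1 CPM, 1.85 ± 0.20, adjusted p = 1e-11), and so were Rad51d (0.90) and Rmi1 (0.88). In mid deuterosomal cells 25 of the 32 were above rest, beside 29 in cycling progenitors. The apical kinases of the damage checkpoint went opposite ways. Atr, the kinase that senses stalled forks, had 105 and 128 CPM against 29.2 and 30.5 CPM (1.94 ± 0.13, adjusted p = 1.53e-20), and its partner Atrip was higher (0.89). The kinase ATR acts on, encoded by Chek1, had 2.59 and 1.81 CPM against 21.5 and 22.8 CPM (−3.24 ± 0.26, adjusted p = 1.75e-17), lower in both libraries, and Atm, which senses double-strand breaks, was lower (−1.06). In this list 3 of 11 were higher and 6 lower (median −0.44).

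Known targets of p53 were lower in 12 of 15 cases and higher in 1 (median −1.08). Gadd45a had 1.61 and 1.06 CPM against 13.3 and 11.4 CPM (−3.12 ± 0.31, adjusted p = 5.25e-14), and Btg2 (−2.80) and Sesn2 (−2.60) were lower. Mdm2, which encodes the ubiquitin ligase of p53, was the 1 member of this list higher (121 and 127 CPM against 44.2 and 61.0 CPM, 1.27 ± 0.14, adjusted p = 1.1e-10). Cdkn1a, a p53 target counted above with the CDK inhibitors and not in this list, was higher as well (0.72). Against rest, 13 of these genes were lower in mid deuterosomal cells (median −1.51) and 4 in cycling progenitors (median −0.03).

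Mitotic genes were lower than in cycling progenitors but far above rest. In the list of 14 mitotic kinases and entry factors, 12 were lower and 1 higher (median −1.37), or 2 higher with DESeq2. Against rest, 12 were higher in mid deuterosomal cells (median 5.57), beside 13 in cycling progenitors (median 7.02). Plk1, a master kinase of mitosis, had 117 and 119.9 CPM against 270.0 and 298 CPM (−1.27 ± 0.11, adjusted p = 2.64e-14) and 0.395 to 0.688 CPM at rest. Both Aurora kinases were lower, by unequal amounts. Aurka, which acts at centrosomes, had 98.1 and 84.1 CPM against 131 and 111 CPM (−0.41 ± 0.12, adjusted p = 0.00163), and Aurkb, which acts at centromeres and the midbody, had 43.0 and 41.7 CPM against 268 and 291 CPM (−2.73 ± 0.12, adjusted p = 1.44e-30). The call for Aurka is lost without the library block (adjusted p = 0.0994), with DESeq2 (0.0689) and in thinned cells (0.073), and over all classes its direction turned (0.41). Nek2, a kinase that separates centrosomes, was higher (137 and 163 CPM against 86.3 and 98.3 CPM, 0.69 ± 0.11, adjusted p = 1.63e-07). Mastl, which blocks the phosphatase opposing CDK1, was the lowest of the list (5.19 and 5.29 CPM against 56.3 and 82.8 CPM, −3.68 ± 0.19, adjusted p = 1.68e-26), and Pbk was lower too (−2.73).

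Kinetochore, centromere and spindle checkpoint genes were lower in 45 of 48 cases and higher in none (median −1.55), with 45 above rest. Ska1, which couples kinetochores to microtubules, had 7.15 and 6.65 CPM against 71.3 and 54.6 CPM (−3.21 ± 0.25, adjusted p = 2.92e-18), and Oip5, a factor that loads the centromeric histone, was lower (−3.52). Condensation and cohesion genes were lower in 19 of 21 cases (median −1.46). Top2a, the topoisomerase that untangles chromosomes, had 679 and 832 CPM against 1463 and 1859 CPM (−1.14 ± 0.13, adjusted p = 5.96e-08) and 9.94 to 16.7 CPM at rest. The condensin subunit gene Ncapg2 had 4.21 and 4.83 CPM against 79.8 and 108 CPM (−4.36 ± 0.18, adjusted p = 1.57e-30), and Esco2, which sets cohesion in S phase, was lower (−4.12). Pttg1, which encodes securin, the APC/C substrate that restrains separase, was higher (313 and 259.8 CPM against 93.5 and 52.8 CPM, 1.94 ± 0.10, adjusted p = 5.07e-26). Esco1 was the other higher member (0.49, adjusted p = 0.00853), a call lost in thinned cells (adjusted p = 0.187), with equal cell numbers (0.0799), without the deepest 5% of cells (0.0718) and over all classes (0.168).

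Among 33 spindle motors and microtubule factors, 24 were lower and 4 higher (median −1.65), and without the block 2 were higher. Psrc1, a spindle microtubule factor, had 0.421 and 0.906 CPM against 86.3 and 94.7 CPM, 12 UMIs against 565 (ratio 155, 95% interval 88.2 to 302), and was −4.55 against rest, where it had 10.9 to 16.6 CPM. Kif14 (−3.63), a kinesin of late mitosis, and Tuba1c (−3.95) were lower. Tubb4b, the main tubulin of cilia, was higher (5058 and 4511 CPM against 2456 and 1879 CPM, 1.14 ± 0.10, adjusted p = 2.5e-14). Ckap2l, a spindle pole protein gene, was higher (475 and 499 CPM against 289.8 and 333 CPM, 0.64 ± 0.18, adjusted p = 0.00479), a call lost without the block (adjusted p = 0.0805) and with DESeq2 (0.157). Tuba1b overlapped between the groups, at 1118 and 2111 CPM against 767 and 1574 CPM (0.48 ± 0.13, adjusted p = 0.00168), and was higher within each library; without the block the call is lost (adjusted p = 0.628).

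Cytokinesis separates the daughter cells. All 14 cytokinesis genes of its list were lower (median −1.38). Pimreg, a mitotic regulator, had 5.47 and 6.95 CPM against 183 and 186 CPM (−4.93 ± 0.17, adjusted p = 8.38e-34). Cdca3, a trigger of mitotic entry, had 33.3 and 30.5 CPM against 522 and 530.1 CPM (−4.05 ± 0.12, adjusted p = 2.1e-35), and Iqgap3, a scaffold of the cell cortex, was lower (−4.01). Against rest, 13 of the list were higher in mid deuterosomal cells (median 4.37), as were 13 in cycling progenitors (median 6.13). At the nuclear envelope 8 of 14 genes were lower and 3 higher (median −0.39). Lmnb1, a lamin of dividing cells, had 70.4 and 63.9 CPM against 417 and 462 CPM (−2.70 ± 0.10, adjusted p = 4.07e-34). Genes of the bridge between nucleus and cytoskeleton went both ways. Sun2 (0.631 and 0.604 CPM against 14.99 and 16.8 CPM, −4.60 ± 0.36, adjusted p = 3.52e-18) and Syne2 (−2.50) were lower, and Sun1 (34.2 and 39.0 CPM against 19.8 and 20.9 CPM, 0.83 ± 0.16, adjusted p = 4.42e-06) and Syne1 (1.68) higher.

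The promoters of Cdk1 and Top2a are shown because they hold the CHR motif and these genes were far above rest in both populations. This cell cycle homology region motif, bound by the MuvB complex, was searched as TTTGAA on both strands. The promoters of Plk1 and Ccnb1, genes also far above rest in both, hold no match. Cdk1 is at chr10:69352913-69353162, minus strand, and Top2a at chr11:99024190-99024439, minus strand, both 5′ to 3′ along the gene with the motif, or its reverse complement in the downstream match of Top2a, in capitals.
Cdk1: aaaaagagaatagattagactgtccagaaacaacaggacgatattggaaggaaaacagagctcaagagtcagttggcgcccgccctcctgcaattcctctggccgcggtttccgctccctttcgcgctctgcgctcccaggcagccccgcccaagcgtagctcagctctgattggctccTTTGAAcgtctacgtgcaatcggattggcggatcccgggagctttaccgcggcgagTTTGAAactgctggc
Top2a: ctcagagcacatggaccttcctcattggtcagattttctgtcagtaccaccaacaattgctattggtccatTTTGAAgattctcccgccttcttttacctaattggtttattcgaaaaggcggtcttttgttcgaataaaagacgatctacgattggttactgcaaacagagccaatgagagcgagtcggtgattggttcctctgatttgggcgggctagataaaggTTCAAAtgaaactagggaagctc
Each holds the motif 2 times. It was in 9 of 17 promoters (52.9%) of condensation and cohesion genes and in 37.5% of those of cytokinesis genes, and also in 38.9% for docking and 33.3% for dynein assembly genes, lists that were higher. It was in 10.5% of promoters of all genes tested and in no promoter of the mitotic kinase list. Genes at least 2-fold higher and at least 2-fold lower held it in 10.4% and 11.6%.

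Centriole genes were on the other side. Of 35 centriole assembly and deuterosome genes, 32 were higher and none lower (median 1.71). Plk4, the kinase that starts a new centriole, had 329 and 347 CPM against 94.8 and 113 CPM (1.71 ± 0.12, adjusted p = 1.83e-17) and 5.32 to 9.39 CPM at rest. Cep152, which recruits PLK4, had 41.0 and 50.8 CPM against 7.25 and 6.37 CPM (2.68 ± 0.21, adjusted p = 5.61e-18). Ccdc78, a deuterosome gene, had 41.2 and 18.1 CPM against 0.242 and 0.910 CPM, 708 UMIs against 3 (ratio 71.6, 95% interval 24.4 to 348). All 35 genes were above rest in mid deuterosomal cells (median 3.11), and 24 also in cycling progenitors (median 1.19).

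Regulators of multiciliation were higher in 11 of 15 cases and lower in 3 (median 1.56). Mcidas, which encodes multicilin, had 132 and 135 CPM against 2.42 and 0.910 CPM (6.13 ± 0.24, adjusted p = 1.06e-31). It lies between Ccno and Cdc20b on chromosome 13 (Ccno chr13:112987802-112990777, Mcidas chr13:112993845-113000394, Cdc20b chr13:113035111-113091195, all on the plus strand). These 3 neighbours were 36.9-, 70.1- and 66.6-fold higher. Gpx8 (chr13:113042753-113046410, minus strand) lies within the bounds of Cdc20b and was lower, so the stretch did not go 1 way. Foxn4 had 37.6 and 41.8 CPM against 0.483 and 0 CPM, 814 UMIs against 2 (ratio 123, 95% interval 34.1 to 1021). Trp73 (29.5 and 27.9 CPM against 3.14 and 1.37 CPM, 3.50 ± 0.27, adjusted p = 9.06e-18) and Foxj1, the master factor of motile cilia (851 and 1260.3 CPM against 152 and 168 CPM, 2.68 ± 0.13, adjusted p = 3.93e-19), were higher too. Gmnc, which acts at the top of this pathway, was lower (9.11 and 5.44 CPM against 14.5 and 15.5 CPM, −0.94 ± 0.23, adjusted p = 0.000226), and progenitors II at rest held 47.7 and 40.7 CPM of it. Rfx4 was lower as well (−0.98).

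**Figure D2:**
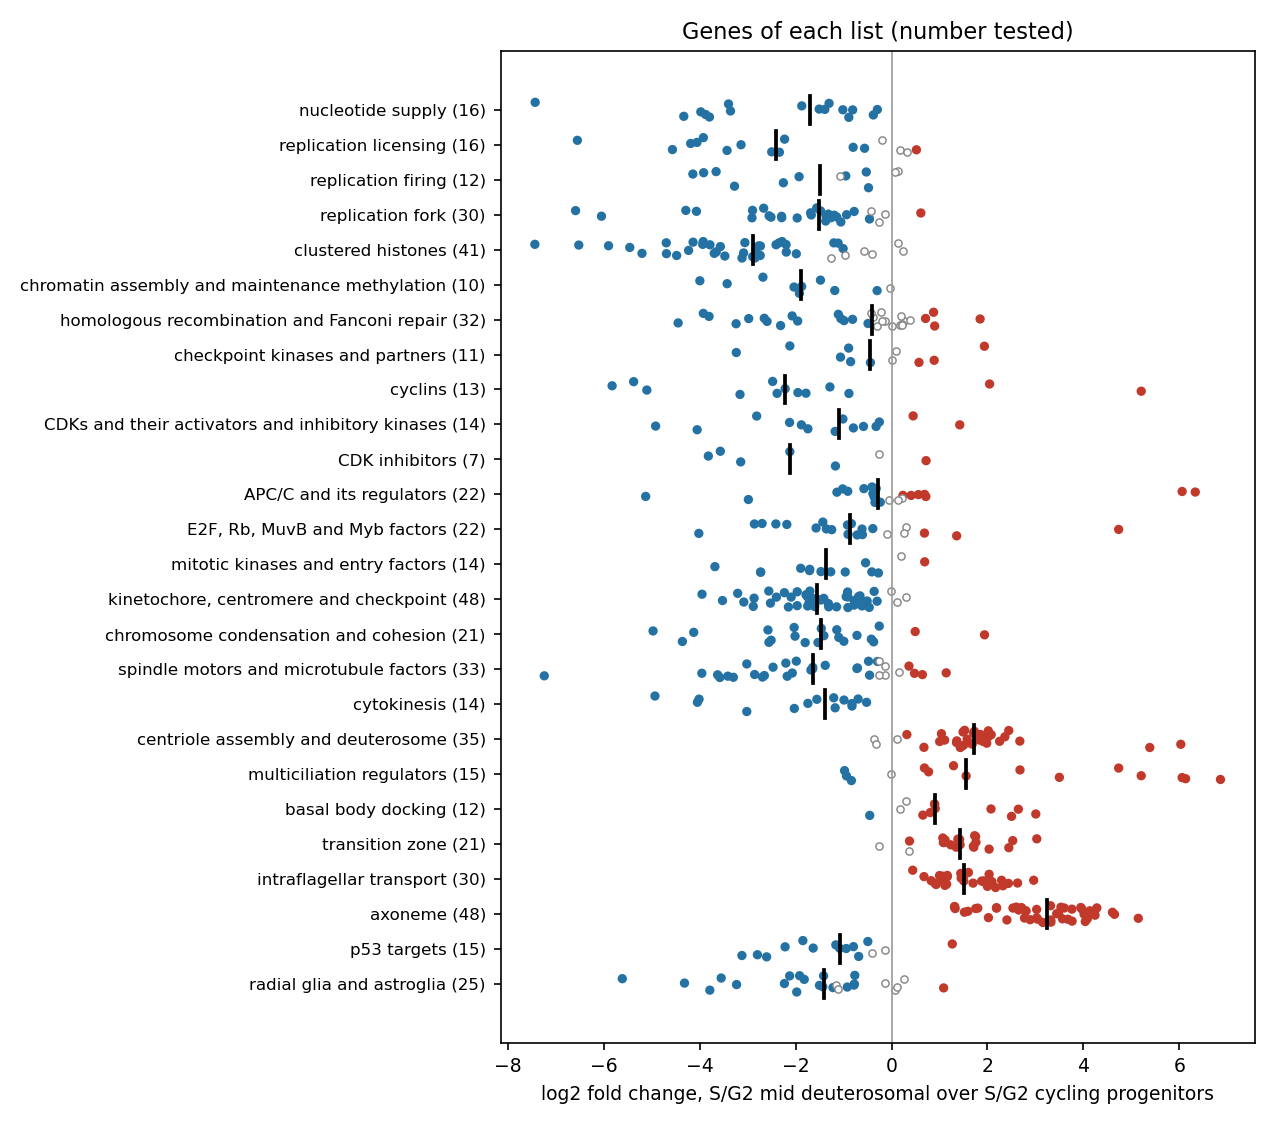
Each point is 1 gene of a list, placed by its log2 fold change in S/G2 mid deuterosomal cells over S/G2 cycling progenitors (filled: past the test, red higher and blue lower; open: not past it), with a black bar at the list median. The medians of replication, mitosis and cytokinesis lists lie left of 0 and those of centriole and cilium lists right of it, with the axoneme median at 3.23.

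Genes of the cilium were higher almost without exception. All 48 axoneme genes (median 3.23), all 9 dynein assembly factors tested (median 2.82) and all 30 intraflagellar transport genes (median 1.51) were higher, as were 19 of 21 transition zone genes (median 1.42). Spag17, part of the central pair of motile cilia, had 142 and 108 CPM against 4.11 and 2.73 CPM (5.14 ± 0.39, adjusted p = 2.37e-09). The motor gene Dnah3 had 57.1 and 55.4 CPM against 3.38 and 0 CPM (4.65 ± 0.38, adjusted p = 2.37e-10), and Meig1 had 3122 and 2534 CPM against 197 and 37.3 CPM (4.61 ± 0.33, adjusted p = 2.15e-10). Zmynd10, needed to assemble dynein arms, had 436 and 353 CPM against 18.9 and 7.74 CPM (4.76 ± 0.14, adjusted p = 8.37e-38). Ift20 (1239 and 1202 CPM against 170.4 and 139 CPM, 2.96 ± 0.09, adjusted p = 1.54e-37) carries cargo to the cilium, and Tmem107 (1497 and 1293 CPM against 189 and 148 CPM, 3.03 ± 0.10, adjusted p = 2.46e-37) sits at its gate.

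Docking genes, which fix the basal body to the membrane, were higher in 9 of 12 cases and lower in 1 (median 0.90). The distal appendage genes Cep83 (335 and 397 CPM against 45.7 and 41.9 CPM, 3.01 ± 0.12, adjusted p = 1.79e-33) and Cep164 (2.50) were higher, and Cep89, of the same appendage, was lower (57.6 and 59.96 CPM against 82.9 and 76.4 CPM, −0.45 ± 0.12, adjusted p = 0.000472). In thinned cells Cep89 no longer passed (−0.27, adjusted p = 0.15), and over all classes its direction turned (0.34). Against rest, cycling progenitors had 23 of 48 axoneme genes lower and 5 higher (median −0.50) and 16 transport genes lower (median −0.36), beside 48 axoneme (median 2.52) and 28 transport genes higher (median 1.46) in mid deuterosomal cells.

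The promoters of Mcidas, Nek2 and Lrrc23 are shown because they hold the core of the X-box, the element of RFX factors in cilium genes, searched as GTTGCC on both strands. They are Mcidas at chr13:112993618-112993867, plus strand, Nek2 at chr1:191821223-191821472, plus strand and Lrrc23, a radial spoke gene, at chr6:124779728-124779977, minus strand. All run 5′ to 3′ along the gene with the motif in capitals, the upstream match of Lrrc23 as its reverse complement.
Mcidas: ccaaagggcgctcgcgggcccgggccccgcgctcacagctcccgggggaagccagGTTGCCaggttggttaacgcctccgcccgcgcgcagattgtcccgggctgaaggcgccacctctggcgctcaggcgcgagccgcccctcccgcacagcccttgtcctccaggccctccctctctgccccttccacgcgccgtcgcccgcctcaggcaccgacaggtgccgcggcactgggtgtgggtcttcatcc
Nek2: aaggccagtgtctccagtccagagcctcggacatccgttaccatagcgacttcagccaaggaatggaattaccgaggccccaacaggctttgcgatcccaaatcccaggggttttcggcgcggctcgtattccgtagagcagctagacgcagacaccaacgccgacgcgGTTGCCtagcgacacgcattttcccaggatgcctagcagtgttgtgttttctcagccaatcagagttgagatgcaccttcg
Lrrc23: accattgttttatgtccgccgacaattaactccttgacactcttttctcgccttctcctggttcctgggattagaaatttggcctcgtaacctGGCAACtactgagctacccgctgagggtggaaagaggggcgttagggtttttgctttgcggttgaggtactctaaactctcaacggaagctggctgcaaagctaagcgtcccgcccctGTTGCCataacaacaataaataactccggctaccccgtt
This core was in 14 of 50 promoters (28.0%) of axoneme genes and 6 of 25 (24.0%) of transport genes, but in 10.3% for centriole, 12.0% for transition zone and 5.56% for docking genes. Lists that were mostly lower held it at similar shares, 24.2% for spindle and 25.0% for chromatin assembly genes. Over all genes tested it was in 11.2%, in 16.0% of promoters of genes at least 2-fold higher and in 8.66% of those at least 2-fold lower. Of the tested genes 10521 had a promoter in the table.

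**Figure D3:**
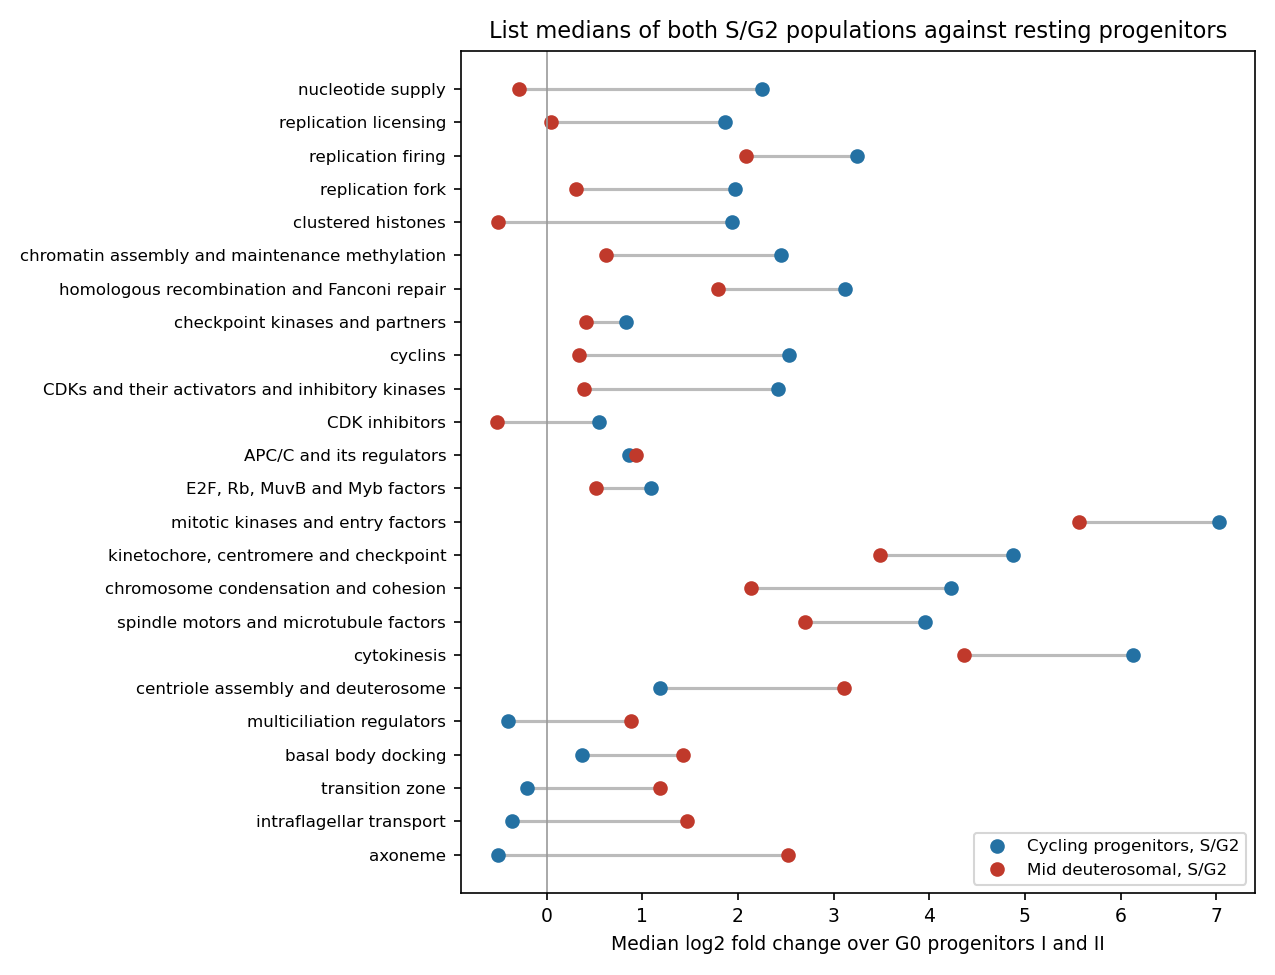
Median log2 fold change of each list over resting progenitors I and II, in S/G2 cycling progenitors (blue) and S/G2 mid deuterosomal cells (red), which share the resting reference. Mitotic lists are far to the right in both, licensing and nucleotide supply sit near 0 in mid deuterosomal cells (0.04 and −0.29), and the transition zone, intraflagellar transport and axoneme medians are above rest in mid deuterosomal cells and below it in cycling progenitors.

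Among abundant genes (mean log2 CPM at or over 5), the 12 largest differences each way included genes outside these lists. Higher were Plvap (275 and 261 CPM against 8.46 and 8.65 CPM, 5.03 ± 0.27, adjusted p = 2.82e-13), known from fenestrated vessels, and Shisa8 (328 and 352 CPM against 11.4 and 9.10 CPM, 5.00 ± 0.27, adjusted p = 1.34e-12). Dmkn (4.91), the vesicular glutamate transporter gene Slc17a8 (4.81), the lysosomal protease gene Ctsh (4.60), the dynein gene Wdr63 (4.79) and Lrrc23 (4.65) were higher too. On the lower side, Igfbp5, which binds insulin-like growth factors, had 22.6 and 22.5 CPM against 806 and 909 CPM (−5.23 ± 0.24, adjusted p = 1.49e-13). Id3 had 6.80 and 5.89 CPM against 388 and 223 CPM (−5.61 ± 0.36, adjusted p = 3.42e-11) and Id1 was lower too (−4.31). Both encode inhibitors of bHLH factors. Tpm2 (−4.65), Tubb6 (−4.63), Mest (−4.58) and Gpx8 (−4.20) were lower. Resting progenitors held 1499 to 2740.2 CPM of Igfbp5, 229 to 299 CPM of Gpx8 and 237 to 994 CPM of Id3, so these genes were high in both progenitor states and low in mid deuterosomal cells.

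Radial glia are the stem cells from which ependymal cells arise. In the glial list of 25 genes, cycling progenitors had more of 18 and less of 1 (median −1.42), and 24 were below rest in mid deuterosomal cells. Their summed level was 13909.8 and 11227 CPM against 26211 and 22499 CPM. Nes, the progenitor intermediate filament, had 22.4 and 32.5 CPM against 253 and 546 CPM (−3.79 ± 0.18, adjusted p = 3e-14), and the glutamate transporter Slc1a2 was the 1 member higher (1.09). The Notch pathway holds progenitors undifferentiated, and genes of its list went both ways. The ligand genes Jag1 (79 UMIs against 2, ratio 12.0, 95% interval 3.21 to 101), Jag2 (3.13) and Dll3 (2.68) were named by rule as the highest. The target genes Hes5 (−4.82, lost without the block at adjusted p = 0.156), Nrarp (−3.12) and Hey2 (−2.84) were named as the lowest. Over that list 6 of 19 were higher and 9 lower (median −0.90), beside 31.7% higher and 34.2% lower of all genes tested. The higher count was thus near the share of all genes, and no pattern of ligands and targets is read from it. In thinned cells 12 were tested and 1 was higher.

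The growth regulator Myc had 0.561 and 0.755 CPM against 12.6 and 9.10 CPM (−4.13 ± 0.42, adjusted p = 3.78e-13), and Mycn had 0 UMIs against 37, at least 40.7-fold lower by the floor of 3 counts over the group. Ribosome biogenesis genes did not follow as a list: 4 of 16 were higher and 4 lower, the 3 Myc genes among the latter (median 0.13), and in thinned cells 14 were tested and 2 were lower. Nop58 (273 and 335 CPM against 145 and 208 CPM, 0.80 ± 0.10, adjusted p = 4.2e-11) and Wdr12 (1.09), both needed to make ribosomes, were higher. Ribosomal protein genes were lower in 73 of 81 cases (median −0.73), with a summed level of 56174 and 53449 CPM against 88807 and 90039 CPM.

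Lists for handling of the cells and for other cell types were counted as well, and their part in the results was not tested. Immediate early and dissociation genes were lower in 12 of 16 cases and higher in none (summed 519 and 1121 CPM against 989 and 2181 CPM), for example Dusp1 (−3.13) and Jun (−2.27). Without the library block 4 of the 16 were lower, and in thinned cells 8 of 14. Mitochondrial genes were lower in 5 of 13 cases (median −0.15), near the share of all genes, and in 1 without the block. Neuroblast and neuron genes were lower in 9 of 15 cases (median −1.69; summed 209 and 271 CPM against 379 and 458 CPM), with Dcx at 12 and 1 UMIs against 21 and 7. When the compared sums alone were fitted 9 were tested and 6 were lower, and in thinned cells 6 were tested and 2 were lower (median −0.98), Dcx no longer among them (adjusted p = 0.13). Of 10 oligodendrocyte lineage genes 3 were lower and 1 higher (summed 292 and 259.8 CPM against 225 and 224 CPM), under the share of all genes called, and in thinned cells 8 were tested, 3 of them higher and 2 lower.

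Of the fibroblast and mural list 3 of 7 genes were tested and all 3 were lower (summed 318 and 488 CPM against 2620.2 and 3217 CPM). Nearly all of that level was Acta2 (314 and 479 CPM against 2581 and 3173 CPM). Col1a1 had 2 and 0 UMIs against 8 and 3, and Dcn 2 and 2 against 11 and 4. Of 11 microglial genes 4 were tested and all 4 were higher (summed 35.7 and 7.25 CPM against 7.49 and 3.19 CPM), but this came from replicate 1. C1qa had 9.18 and 1.06 CPM against 1.21 and 1.37 CPM, and its direction turned without replicate 1. Without the block none of the 4 was called, with DESeq2 1 was, and without the deepest cells 2 were tested and none called. In thinned cells and in the fit of the compared sums alone none had the counts to be tested.

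The difference between the populations was then compared between cycle classes. Class S was the 1 other class with at least 20 cells of both populations in both libraries: 133 and 46 mid deuterosomal cells, 124 and 48 cycling progenitors. In class S, 3282 genes were higher (24.1%) and 3374 lower (24.7%) in mid deuterosomal cells, 48.8% in all, with a median of −0.02. The difference itself depended on the class for 323 of the 13634 genes (2.37%), 117 upward and 206 downward in S/G2, with a median of −0.0048. Without the library block 30 genes passed and in thinned cells 62, so this count depends on both settings. Among the lists, it passed for 0 of 16 licensing and 0 of 16 nucleotide supply genes, 11 of 48 kinetochore genes, 10 of 33 spindle genes and 5 of 14 mitotic kinases and entry factors. It also passed for 6 of 25 glial genes, 2 of 7 CDK inhibitors, 3 of 12 docking genes, 3 of 15 p53 targets and 3 of 16 immediate early genes, and for 2 of 12 firing, 2 of 10 chromatin assembly and 3 of 30 fork genes, so passing genes were not confined to the mitotic lists.

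Cdc20 had the clearest dependence among mitotic genes named here. It was at 161 and 182 CPM in class S mid deuterosomal cells and 51.2 and 44.4 CPM in class S cycling progenitors, where it was higher in the former (1.79 ± 0.15, adjusted p = 3.06e-16), whereas in S/G2 it was slightly lower. The difference of differences was −2.19 ± 0.18, adjusted p = 1.5e-14. Cep89 turned in the same way, at 45.9 and 54.2 CPM against 14.2 and 10.2 CPM in class S (−2.37 ± 0.27, adjusted p = 4.5e-09 for the dependence), and Aurka did so too (49.5 and 44.9 CPM against 22.4 and 20.3 CPM, −1.55 ± 0.26, adjusted p = 6.86e-05). Ccnb1 was near level in class S (54.8 and 57.6 CPM against 41.6 and 53.6 CPM) and lower in S/G2 (−1.16 ± 0.21, adjusted p = 0.000149). The dependence of Cdc20 and Cep89 passed under every alternative run, and that of Aurka and Ccnb1 was lost in thinned cells (adjusted p = 0.197 and 0.085) and without the block (0.059 and 0.0874). For these 4 genes the cycling progenitor values differ more between S and S/G2 than the mid deuterosomal values do. Ccna1 and Ccna2 did not depend on the class at this threshold (adjusted p = 0.537 and 0.647): in class S Ccna1 was at 239.9 and 173 CPM against 42.0 and 24.0 CPM and Ccna2 at 3.12 and 2.30 CPM against 148 and 163 CPM.

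**Figure D4:**
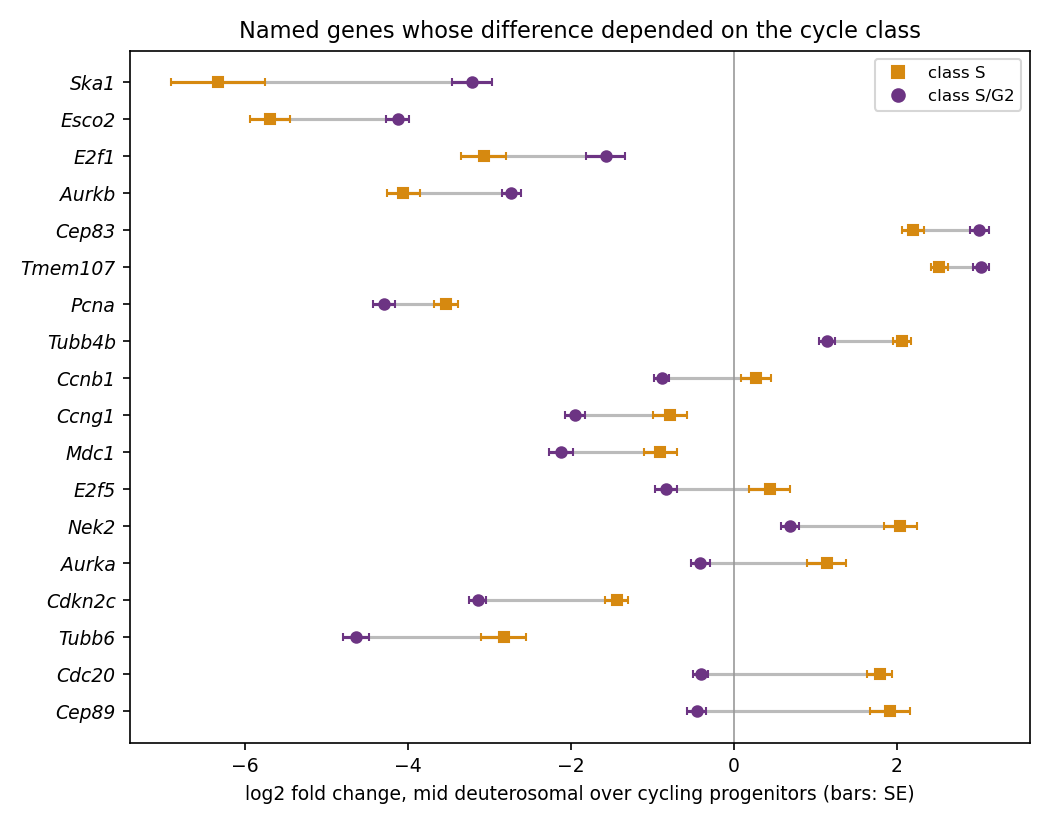
Log2 fold change of mid deuterosomal cells over cycling progenitors in class S (orange squares) and class S/G2 (purple circles) for the named genes whose difference depended on the class, with bars for the standard error. Cdc20, Cep89 and Aurka cross from above 0 in class S to below 0 in S/G2.

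Shares of cells with a UMI were counted after each cell was thinned to 5000 UMIs. This left 691 and 286 mid deuterosomal cells, 206 and 97 cycling progenitors and, as cells that should lack these genes, 60 and 34 resting oligodendrocytes (median UMIs before thinning 8992 and 10824). Ccna1 was seen in 84.1% and 67.5% of mid deuterosomal cells and 33.0% and 29.9% of cycling progenitors, and in 1.67% and 0% of oligodendrocytes (unthinned 98.6% and 96.2% against 68.0% and 71.1%). Ccna2 was seen in 3.62% and 3.50% against 70.9% and 78.4%, and 1.67% and 0% of oligodendrocytes (unthinned 14.4% and 18.5% against 94.2% and 94.8%). A count of 0 among 34 cells allows a share of up to 8.82%, so oligodendrocytes cannot show whether the mid deuterosomal share is background. Resting progenitors I, 2248 and 1203 thinned cells, had Ccna2 in 0.222% and 0.416%, below mid deuterosomal cells in each library. Both cyclin A genes were seen in 23 of 691 and 9 of 286 mid deuterosomal cells and in 50 of 206 and 25 of 97 cycling progenitors.

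For the Emi pair, Fbxo43 was seen in 14.9% and 9.79% of mid deuterosomal cells and 0% and 1.03% of cycling progenitors (unthinned 40.1% and 36.0% against 0.485% and 1.03%), with 0% and 0% in oligodendrocytes. Fbxo5 was seen in 2.03% and 0.350% against 46.1% and 39.2% (unthinned 6.49% and 4.45% against 73.3% and 74.2%), with 0% and 2.94% in oligodendrocytes. Both were seen together in 2 of 691 and 0 of 286 mid deuterosomal cells. Cdk1 was seen in 93.9% and 94.1% of mid deuterosomal cells and 86.9% and 90.7% of cycling progenitors, Top2a in 94.5% and 96.2% against 87.4% and 91.8%, and Cdc20 in 73.5% and 76.9% against 74.3% and 68.0% (unthinned 100% and 99.7% against 94.2% and 96.9%, 100% and 99.3% against 96.6% and 97.9% and 97.7% and 99.0% against 92.2% and 94.8%). In oligodendrocytes these shares were 3.33% and 2.94%, 6.67% and 11.8% and 0% and 0%. For Cdk1 and Top2a the share of positive cells was thus higher in mid deuterosomal cells while the CPM was lower. In replicate 2 the exact 95% intervals of these shares overlapped for both genes. The difference in shares was not tested, and no order is read from the shares.

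**Figure D5:**
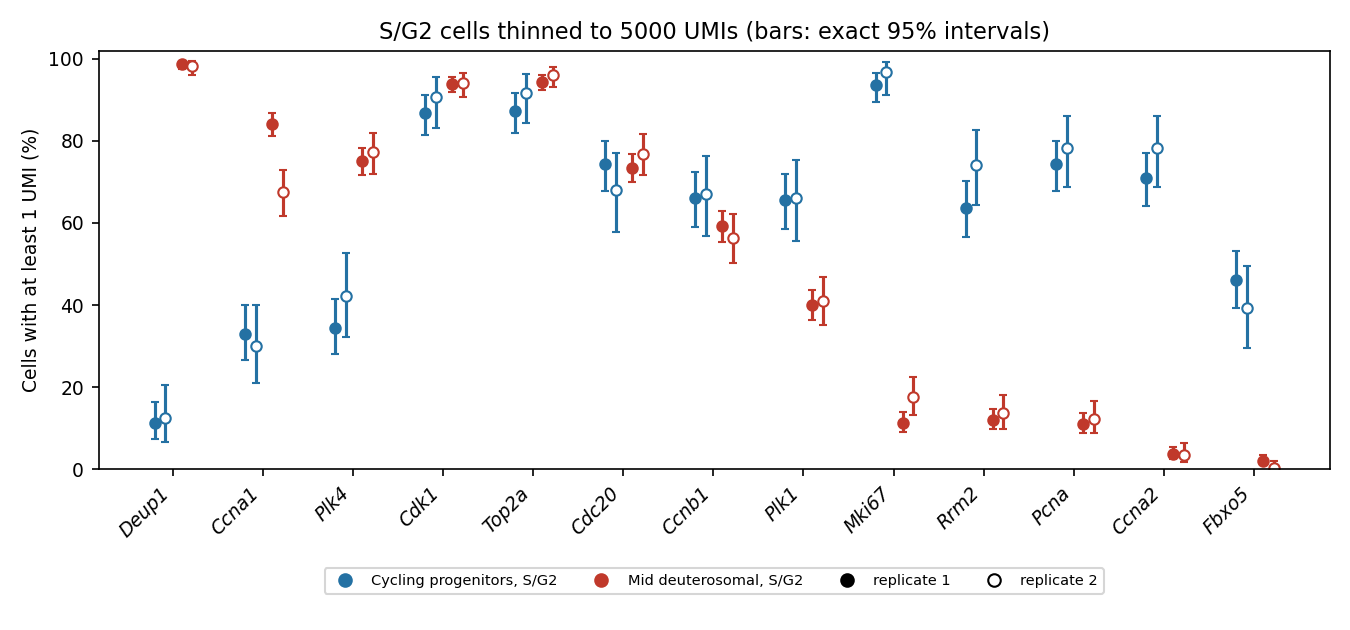
Share of S/G2 cells with at least 1 UMI of a gene after thinning to 5000 UMIs, in cycling progenitors (blue) and mid deuterosomal cells (red), filled for replicate 1 and open for replicate 2, with exact 95% binomial intervals that cover counting error only. Cdk1, Top2a and Cdc20 are seen in most cells of both, whereas Ccna2 and Fbxo5 are seen in few mid deuterosomal cells.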

How the data were processed

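Single-cell transcripts of 2 primary cultures were counted by the authors as raw UMI counts per gene and cell, with Cell Ranger 5.0.1 and 3 on mm10, per the submitters' processing notes. All values of the deposited table were whole numbers over 32287 gene IDs and 16401 cells. The aligner settings and how names, cycle classes and doublets were handled are not given in the sources used here, and no cells were removed. The 2 libraries share 13 cell barcodes, 1 of them among the cells compared.

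UMI counts were summed per library, population and class, keeping pairs with at least 20 cells in each library (19 pairs, 38 sums). Genes passing filterByExpr (13634) were fitted with edgeR 4.0.16 in R 4.3.3: TMM factors (0.914 to 1.21), a quasi-likelihood model with robust spread, a term per pair and the library as block (18 residual degrees of freedom), two-sided, Benjamini-Hochberg at 0.05. The block is kept because each library gives every pair: deviations from the pair means correlated between sums of 1 library (median 0.185, lowest 0.0161 over 171 pairs). Standard errors are the log2 fold change over the root of F. The block takes out the mean difference between the 2 libraries. The p-values thus rest on the spread that is left within pairs, estimated over all 19 pairs, and do not measure the spread between cultures. The libraries of a population differed beyond counting noise (chi-square per gene 19.2 and 8.47), so they count as separate samples. Sums of class G1 progenitors held too few cells, so the resting reference is class G0. Class S was compared after the files had been seen.

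Named genes are the 12 largest called changes each way whose mean log2 CPM over the 4 sums was 5 or more and 1 direction in both libraries (predicted, mitochondrial and ribosomal protein genes left out), up to 3 highest and 3 lowest called members of each list, all cyclins and a short set of regulators. The members and lists were chosen with earlier results of these data known. Ratios of UMIs for genes with few UMIs have exact 95% binomial intervals. Intervals and the floor of 3 counts for a count of 0 (0.144 CPM in mid deuterosomal cells, 0.474 CPM in cycling progenitors) cover counting error only. Gene positions are from GENCODE vM21, promoters from RefSeq. Alternatives were a fit of the compared sums only, no block, DESeq2 1.42.0, RLE or no scaling factors, no filter, cells thinned to 5000 UMIs, equal cell numbers, no cells among the deepest 5%, at least 50 cells per sum, all classes together, and each library alone.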

Additional observations from a re-analysis of the deposited data

Results flagged for a closer look

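For 18 of the named genes the mid deuterosomal difference depended on the cycle class, by edgeR's test of the difference between the class S/G2 and class S contrasts. The value is the S/G2 log2 fold change minus that of class S, and 323 of 13634 genes passed this test. It was negative for Cdc20 (−2.19), Cep89 (−2.37), Tubb6 (−1.81), Cdkn2c (−1.71), Aurka (−1.55), Nek2 (−1.35), E2f5 (−1.27), Mdc1 (−1.22), Ccng1 (−1.16), Ccnb1 (−1.16), Tubb4b (−0.92) and Pcna (−0.76). For Cdc20, Cep89 and Aurka both contrasts passed the test with opposite signs. Nek2 and Tubb4b were higher in mid deuterosomal cells in both classes, by 2.04 and 2.06 in S and 0.69 and 1.14 in S/G2.

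The value was positive for Ska1 (3.12), Esco2 (1.57), E2f1 (1.49), Aurkb (1.33), Cep83 (0.81) and Tmem107 (0.51). Ska1, Esco2, E2f1 and Aurkb were lower in mid deuterosomal cells in both classes, and more so in S. Cep83 and Tmem107 were higher in both, and more so in S/G2. Most of these calls did not pass in thinned cells or without the library block. Those of Cdc20, Cdkn2c and Cep89 passed under every alternative run.

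For 3 microglial genes the libraries moved in opposite directions. The log2 ratio in replicate 1 was 2.46 for C1qa, 2.10 for C1qc and 2.00 for Tyrobp, and in replicate 2 it was −0.74, −0.85 and −0.59. This difference between libraries was not tested.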

How the results depend on the processing

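Of 177 named genes, 154 kept their direction and call under every alternative run with a test. Thinning every cell to 5000 UMIs lowered the genes called from 8974 to 5910 (lower: from 4657 to 2813). Cycling progenitors against rest went from 6301 to 3767 when thinned and 3908 without the replicate block (lower: 1885 and 2021). The dependence on the class went from 323 to 62 when thinned (20 upward, 42 downward), to 30 without the block (7 and 23), and to 231 upward with no filter. The cause was not tested, though thinned sums hold fewer UMIs. With each library alone, which allows no test, 8934 to 8974 of the called genes kept their direction (higher 4288 to 4317, lower 4646 to 4657), and 323 of the 323 class-dependent ones did. Against rest it was 10657 to 10683 (5176 to 5182, 5481 to 5501) for mid deuterosomal cells and 6277 to 6296 (2793 to 2794, 3484 to 3502) for cycling progenitors. All these genes were called from the same 2 libraries together, so the kept directions were largely set by that choice and are a description.

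Over all classes together Aurka (0.4117), Cdc20 (0.4597) and Cep89 (0.3362) were higher in mid deuterosomal cells. In that setting the mix of classes differs between the populations. C1qa was lower without the deepest 5% of cells (−0.1837). Without replicate 1, the microglial genes C1qa (−0.7431), C1qc (−0.8541) and Tyrobp (−0.5911) were lower, and without replicate 2 they were higher (2.4621, 2.1049 and 2.0008). The replicate block changed the calls of Aurka, Ckap2l, Cdkn1a, Hes5, Fosb, Tuba1b, Banf1, C1qa, C1qc and Tyrobp, with adjusted p of 0.0994, 0.0805, 0.075, 0.156, 0.279, 0.628, 0.284, 0.121, 0.0934 and 0.0948 without it. Under TMM, RLE and plain totals the median over all genes was −0.0469, −0.0019 and −0.0426, and the higher share of calls 48.1%, 50.6% and 48.3%. At least 50 cells per sum could not be run for the dependence on the class, since class S held 48 cycling progenitors in replicate 2. Depth limits genes with few UMIs, whose ratios have wide intervals.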
